A study of Homo sapiens with 12 samples.

Results

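The cytosolic ribosomal protein genes were taken from the deposited expression table by symbol: rows named RPL or RPS followed by a number, with an optional A, X, Y or L ending, together with RPSA, RPLP0, RPLP1 and RPLP2, and without RPS6K kinases or pseudogenes. The rule found 87 of 23346 rows. The RNA came from SW1990 and CFPAC-1 cells, established human pancreatic adenocarcinoma lines, sorted with the antibody GCTM-5, which binds a surface glycoconjugate complex. Each line gave 3 antigen positive and 3 antigen negative samples, hence 12 samples in 4 groups: SW1990 positive, SW1990 negative, CFPAC-1 positive and CFPAC-1 negative. The sort gates kept only strongly stained and unstained cells, so cells of intermediate staining were not measured, and each line is a single culture line with no treatment other than antibody staining and sorting. The methods call the replicates triplicate sorts, and nothing states that they came from separate cultures, so the p-values measure the spread between sorts, which may be technical.

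Cytosolic ribosomes are built from a small 40S subunit, which decodes the mRNA, and a large 60S subunit, which forms peptide bonds. Nearly every ribosomal protein is present as a single copy in each ribosome, and the mRNAs of these proteins begin with a run of pyrimidines, the 5' terminal oligopyrimidine (TOP) motif, through which their translation responds to the mTOR kinase. The human genome carries many processed pseudogenes of these mRNAs, and a few members have expressed paralogs, such as RPL39L beside RPL39, that can take the place of the usual protein.

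Of the 87 rows, 2 lie on the Y chromosome and their levels are not given. Another 3, RPL10L among them, were listed at 0 in all 12 samples, and RPL3L, the muscle paralog of RPL3, held 1 read in 1 sample and none in the other samples. That left 81 members with a mean of at least 0.1 RPKM (reads divided by gene length and by library size), 31 of the small and 50 of the large subunit, and these were fitted together with 16236 genes in all. Library totals ran from 9969697 reads in CFPAC-1 positive replicate 3 to 26159330 in CFPAC-1 positive replicate 1. The epithelial markers KRT8, KRT18, KRT19, EPCAM and CDH1 were expressed in every group, and their summed level ran from 1357 to 1628 RPKM in SW1990 negative, 4014 to 4562 in SW1990 positive, 5222 to 6002 in CFPAC-1 negative and 6400 to 7691 in CFPAC-1 positive samples. The leukocyte marker PTPRC and the hepatocyte marker ALB did not exceed 0.0488 and 0.0457 RPKM in any sample. The other 2 markers of other cells, COL1A1 and PECAM1, were expressed highly enough to be fitted. All 4 summed to 3.91 to 4.76 RPKM in SW1990 negative samples and to less in the other groups.

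The start sites of a selection of members described further on are shown because the pyrimidine run there is the feature these mRNAs are known for. Each window covers 10 bases before and 20 bases from the annotated gene start, with the longest uninterrupted run of C and T in capitals. RPL7A, RPL35, RPS26 and RPL7L1 were higher in antigen positive CFPAC-1 cells, RPS12, RPS27 and RPS27L were lower in positive cells of a line, RPL39 and RPL22 were lower in SW1990 than in CFPAC-1, and RPL22L1 is shown beside its partner.
RPL7A: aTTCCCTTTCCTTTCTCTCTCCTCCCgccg
RPL35: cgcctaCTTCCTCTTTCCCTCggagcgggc
RPS26: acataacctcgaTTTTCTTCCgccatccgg
RPS12: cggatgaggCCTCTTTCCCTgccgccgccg
RPS27: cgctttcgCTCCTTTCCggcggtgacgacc
RPL39: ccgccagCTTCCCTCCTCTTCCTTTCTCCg
RPL22: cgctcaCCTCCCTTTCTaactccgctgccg
RPL22L1: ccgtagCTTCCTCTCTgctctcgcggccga
RPS27L: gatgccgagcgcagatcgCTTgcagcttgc
RPL7L1: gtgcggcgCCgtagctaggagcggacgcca
The sequences are from RefSeq on GRCh38.p14. RPL7A lies at chr9:133348208-133348237 on the plus strand, RPL35 at chr9:124861938-124861967 on the minus strand, RPS26 at chr12:56041908-56041937, RPS12 at chr6:132814559-132814588, RPS27 at chr1:153990752-153990781 and RPL7L1 at chr6:42879606-42879635 on the plus strand, and RPL39 at chrX:119791611-119791640, RPL22 at chr1:6199576-6199605, RPL22L1 at chr3:170870176-170870205 and RPS27L at chr15:63157458-63157487 on the minus strand. The run was 25 bases in RPL7A and 22 in RPL39, against 3 in RPS27L and 2 in RPL7L1. Of the 67 members with an entry, 57 (85.1%) held a run of at least 8 C or T bases between 20 bases before and 30 bases after a start, against 23.7% of the 27305 symbols with an entry and 16.4% of 67 mitochondrial ribosomal protein genes. RPL6, with 2 annotated starts, held no run over 5 bases at either. A run in this window is a description of the sequence and not of its use, and the start in the annotation may not be the one used in these cells.

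The levels of the members ran over a 323-fold range. On the scale of RPKM, which is per gene length, the mean over 12 samples was highest for RPLP1 at 700.1 and lowest for RPS28 at 2.17, with a median of 56.7 and quartiles of 15.3 and 121 over the 81 members. The 5 highest were RPLP1 (an acidic protein of the ribosomal stalk), RPL29 at 495.6, RPL8 at 444.7, RPS6 (the substrate of S6 kinase) at 392.8 and RPS2 at 340.2, which together made up 29.8% of the summed level. The 5 lowest were RPS28, RPL38 at 4.18, RPL7 at 4.24, RPL36A at 4.68 and RPL21 at 6.18. In all, 25 members exceeded a mean of 100 RPKM and 9 stayed under 10 RPKM. For each of the 80 pairs of neighbours in this order the ranges over the 12 samples overlapped. Within samples, RPLP1 was above RPL29 in all 12, and this was the 1 neighbouring pair of the 80 in which the same gene was higher in every sample.

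**Figure D1:**
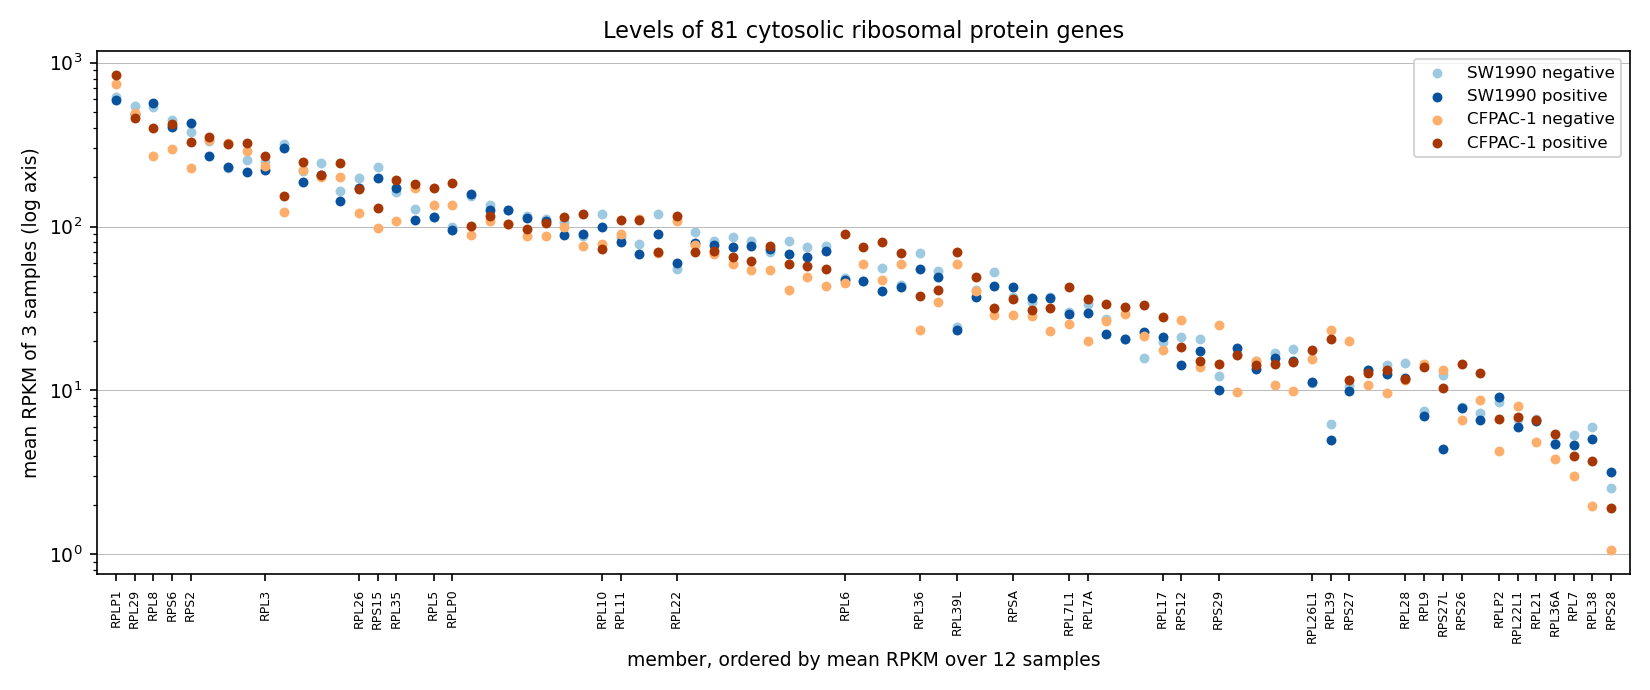
Mean RPKM of 3 samples in each of the 4 groups (log axis, coloured points) for the 81 fitted members, ordered by their mean over 12 samples, with names for selected members. The order runs from RPLP1 to RPS28 over a 323-fold range, and RPL39, RPL39L and RPS27L show wide gaps between groups.

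The order of levels was nearly the same in the 4 groups. Spearman's rho over the 81 members, given as a description across genes that share libraries, was 0.99 between SW1990 negative and positive, 0.98 between CFPAC-1 negative and positive, and 0.95 between the negative groups of the lines. The median coefficient of variation over the 3 replicates was 15.6% in SW1990 negative, 8.99% in SW1990 positive, 10.1% in CFPAC-1 negative and 13.3% in CFPAC-1 positive samples.

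Many bases of these mRNAs also occur elsewhere in the genome. Cut into 50-base windows, the median member had 67.2% of its windows at no other place in GRCh37, against a median of 100% for 76 mitochondrial ribosomal protein genes. With windows of 100 bases, the read length given in the methods, the median rose to 94.1%. GENCODE names 1587 pseudogenes after the fitted members. The windows below are 50 bases from the middle of the coding sequence of members at both ends of the order of levels and of RPL39. They are printed as examples of single windows and of how often each is copied.
RPLP1: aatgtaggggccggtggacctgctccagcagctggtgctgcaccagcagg
RPL29: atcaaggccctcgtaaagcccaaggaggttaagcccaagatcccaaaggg
RPS2: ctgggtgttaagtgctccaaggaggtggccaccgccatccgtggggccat
RPL38: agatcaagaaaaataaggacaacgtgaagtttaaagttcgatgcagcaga
RPL21: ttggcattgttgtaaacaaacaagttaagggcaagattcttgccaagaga
RPL39: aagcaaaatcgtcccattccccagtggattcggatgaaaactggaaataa
The window of RPL21 occurred at 19 other places, those of RPL29 and RPS2 at 6, that of RPL39 at 2, and those of RPLP1 and RPL38 at none. Middle windows that are not printed occurred at 3 other places for RPS28, 1 for RPL36A and 0 for RPS6. Of all its 50-base windows, RPL21 (with 133 named pseudogenes) had 0% to itself, RPS3A 1.83%, RPL7 3.79%, RPS27 4.95% and RPL39 6.16%, whereas RPL38 had 100%. RPL38 was among the lowest members, and RPS3A had a mean of 53.5 RPKM. Over the 81 members the mean level had a Spearman's rho of 0.03 with the share of 50-base windows found nowhere else, 0.18 with that of 100-base windows, -0.09 with the number of named pseudogenes and 0.07 with gene length. How reads that match several places were handled is not given in the sources used here, and their part in the levels was not tested.

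**Figure D2:**
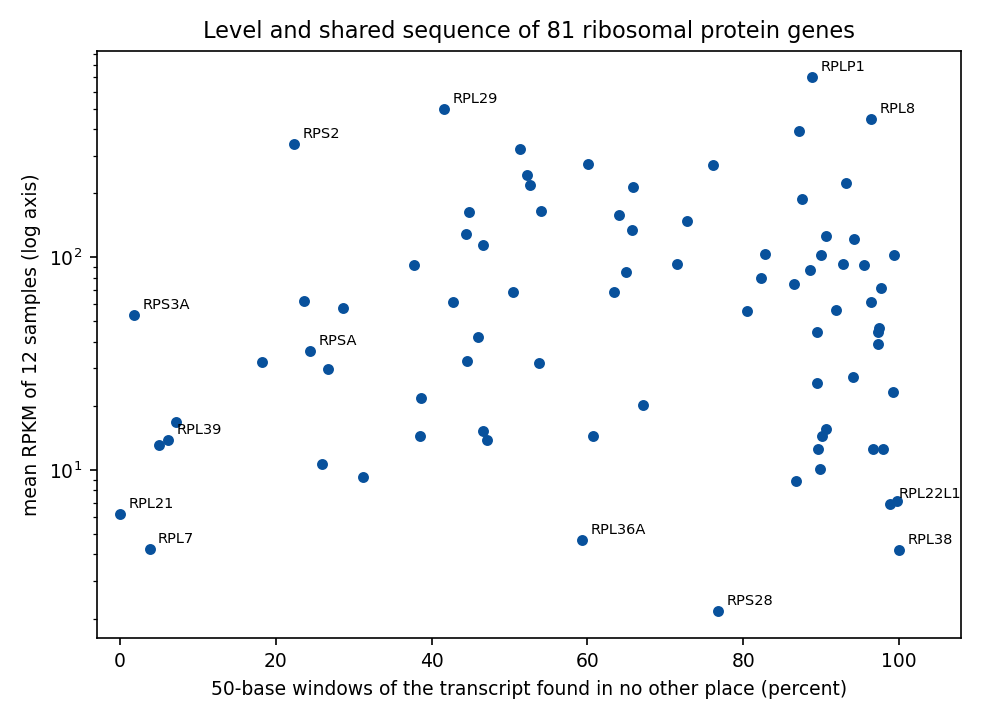
Mean RPKM over 12 samples (log axis) against the percent of 50-base windows of the transcript that occur at no other place in GRCh37, with 1 point for each of the 81 members. Points spread over both axes without a trend (Spearman's rho 0.03), with RPL21 at 0% and RPL38 at 100% both under 10 RPKM.

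Rows outside the symbol rule held further signal of the same kind. RPL36AL, an expressed retrocopy of RPL36A, had group means of 748 to 922 RPKM, above RPLP1 in each of the 4 groups, while RPL36A itself had 4.68 RPKM and the row that joins RPL36A to HNRNPH2 had 68.5. Of 28 pseudogene rows, 13 had a mean of at least 1 RPKM, with RPSAP58 at 433 RPKM against 36.2 for RPSA and RPL13AP5 at 100.4 against 323 for RPL13A. FAU, which encodes a ribosomal protein fused to a ubiquitin-like sequence, had group means of 42.3 to 47.7 RPKM, and GNB2L1 (RACK1, a scaffold on the small subunit) had group means of 262 to 314.

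The first question was whether the ribosomal protein genes as a group differed with the antigen. Summed over the members, they took 2.33% ± 0.27 (SD, n = 3) of all RPKM in SW1990 negative, 2.14% ± 0.083 in SW1990 positive, 2.05% ± 0.16 in CFPAC-1 negative and 2.35% ± 0.23 in CFPAC-1 positive samples. The ranges of the positive and negative samples overlapped in both lines, and the groups stood in opposite order in the 2 lines. Among the single libraries, SW1990 negative replicate 2 (2.64%) and CFPAC-1 positive replicate 3 (2.60%) had the highest shares. SW1990 negative replicate 2 was the highest of its group for 64 of the 81 members, and CFPAC-1 positive replicate 3, the shallowest library, for 47. In bulk RNA, a change in the share of cells that express a gene and a change in RNA per cell cannot be told apart.

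In SW1990, few ribosomal protein genes changed with the antigen. At a Benjamini-Hochberg adjusted p under 0.05 over all 16236 genes (limma on log2 of RPKM plus 0.1), 4 of 81 members fell in positive cells, where 16.9% of all genes tested fell, and 0 rose, where 11.3% of all genes rose. Past 2-fold as well, 1 member was called, against 12.3% of all genes in either direction. The median log2 difference was -0.11 over the members and -0.04 over all genes. With SW1990 negative replicate 2 left out, 1 member was called and the median was -9.3e-05 over the members and -0.055 over all genes. The share of all genes called without that sample is not given here. In the same comparison all 5 epithelial markers rose, by 1.29 to 3.04 on the log2 scale, and COL1A1, a fibroblast collagen gene, fell from 3.57 to 1.93 RPKM. In CFPAC-1, 2 of the 5 epithelial markers rose and 0 fell. Their log2 differences there ran from -0.14 to 0.70, with 3 of the 5 above 0. PTPRC, PECAM1, ALB and COL1A1, the markers of other cells, summed to 3.91 to 4.76 RPKM in SW1990 negative, 2.21 to 2.46 in SW1990 positive and at most 1.66 in any CFPAC-1 sample. The part of these markers in the members' values was not tested.

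RPS27L, a paralog of the small subunit protein RPS27 that is known as a target of p53, had the largest change of the members in SW1990. Its RPKM was 11.2, 15.1 and 10.9 in the negative and 4.52, 3.59 and 5.15 in the positive samples of SW1990, and 15.2, 12.6 and 12.1 in the negative and 10.5, 12.7 and 7.77 in the positive samples of CFPAC-1. The groups did not overlap in SW1990 and overlapped in CFPAC-1. On the log2 scale it fell by 1.47 in SW1990 (SE 0.20, adjusted p = 0.00015), a 2.77-fold difference, against -0.38 in CFPAC-1 (SE 0.20, adjusted p = 0.15). The difference between the lines was itself called (-1.09, SE 0.28, adjusted p = 0.013), and the fall in SW1990 was called under every alternative processing. RPS27L lies at chr15:63418071-63450220 on the minus strand of GRCh37.

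RPS12, a protein of the small subunit, fell in both lines. Its RPKM was 20.1, 21.8 and 21.5 in SW1990 negative, 11.7, 17.0 and 14.1 in SW1990 positive, 28.7, 27.5 and 24.1 in CFPAC-1 negative, and 14.1, 20.8 and 20.1 in CFPAC-1 positive samples. In each line all positive samples were below all negative ones. The change was -0.58 on the log2 scale in SW1990 (SE 0.16, adjusted p = 0.018) and -0.56 in CFPAC-1 (SE 0.16, adjusted p = 0.017). RPS12 was the 1 member called in both lines, and how many of all genes were so called is not given here. The SW1990 call was lost without negative replicate 2, negative replicate 3 or positive replicate 1, and the CFPAC-1 call with that line fitted alone and without its negative replicate 1, negative replicate 2 or positive replicate 1.

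The other calls in SW1990 were small. RPL10, a protein of the large subunit, had 116, 126 and 118 RPKM in the negative and 102, 96.5 and 99.3 in the positive samples. It fell by 0.27 on the log2 scale (SE 0.07, adjusted p = 0.015). Its call was lost with median centring, without SW1990 negative replicate 2 and without SW1990 positive replicate 2. RPL28 fell by 0.30 (SE 0.10, adjusted p = 0.045), from 14.7 ± 1.34 to 11.9 ± 0.836 RPKM (SD, n = 3), and lost its call under 14 of the 23 alternatives. RPS21, which rose in CFPAC-1, had 0.54 in SW1990 without passing the test (adjusted p = 0.054).

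**Figure D3:**
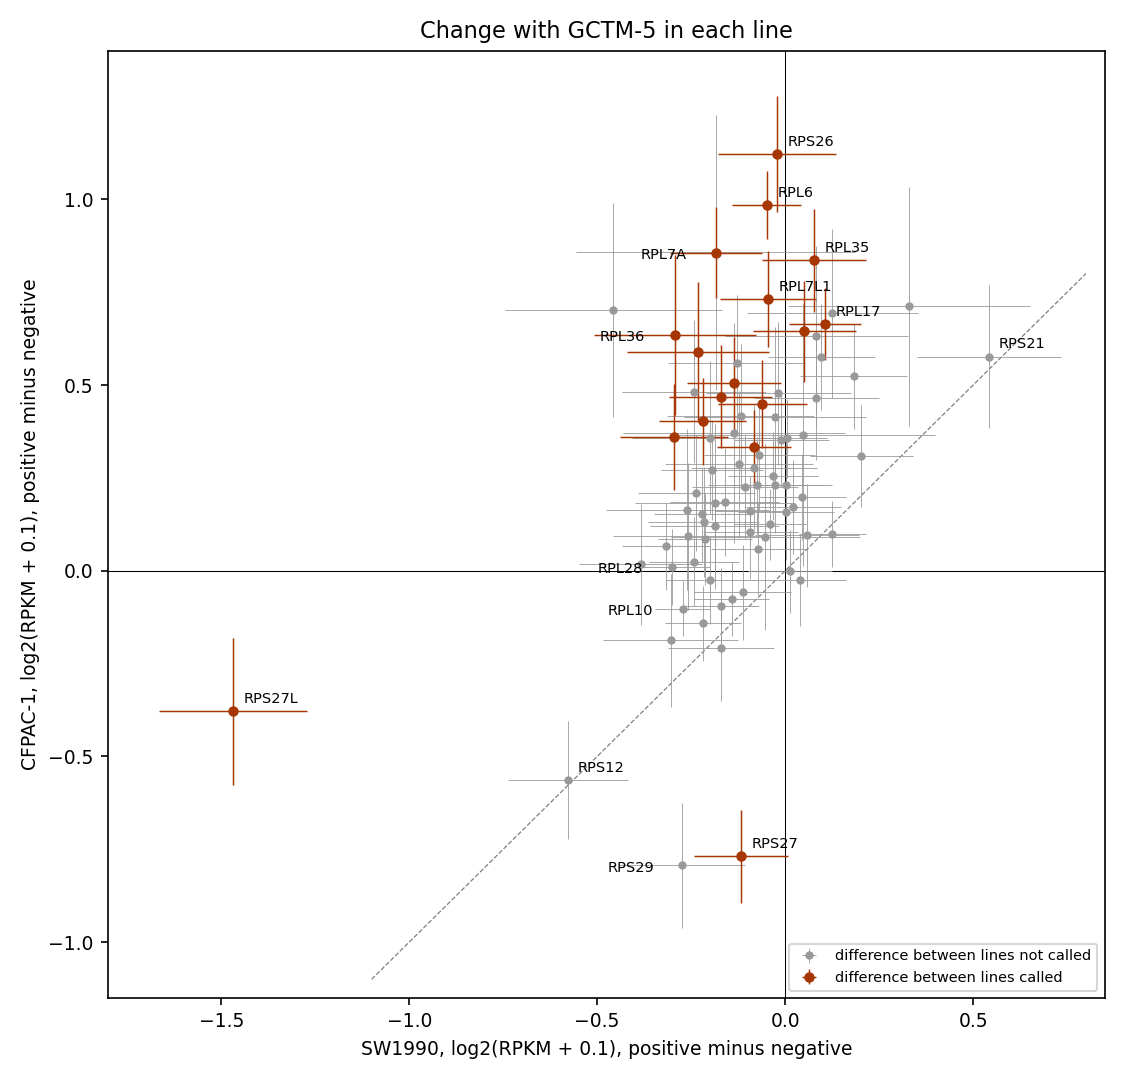
Log2 difference of RPKM plus 0.1 between positive and negative cells in CFPAC-1 (vertical) against SW1990 (horizontal) for the 81 members, with SE bars from limma. Brown points are the 17 members whose change differed between the lines, and the dashed line marks equal change. Most members lie above it, RPS12 lies on it, and RPS27L, at -1.47 in SW1990, stands apart.

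In CFPAC-1, more members changed, and most of those rose. Of 81 members, 22 rose in positive cells (27.2%, where 22.3% of all genes rose) and 3 fell (3.7%, where 14.2% of all genes fell), and 1 was called past 2-fold (10.5% of all genes). The share that rose was thus near the background of all genes. The median log2 difference was 0.23 over the members and 0.05 over all genes. A positive sign was held by 67 of 81 members and by 8763 of the 16236 genes fitted. The 40S members had 8 that rose and 3 that fell of 31, with a median of 0.25, and the 60S members 14 that rose and 0 that fell of 50, with a median of 0.23. With the shallow positive replicate 3 left out, 16 members rose and 3 fell, with negative replicate 2 left out 9 rose and 2 fell, with negative replicate 3 left out 12 rose and 3 fell, and with every sample centred on its median gene 11 rose and 3 fell. The shares of all genes called in these fits are not given here.

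The member that rose most was RPS26, a small subunit protein near the mRNA exit channel and one of the genes mutated in Diamond-Blackfan anaemia. Its RPKM was 7.61, 5.63 and 6.55 in CFPAC-1 negative and 17.0, 11.7 and 14.9 in CFPAC-1 positive samples, and between 6.91 and 8.92 in all 6 SW1990 samples. The 3 positive CFPAC-1 samples were above all others. The change was 1.12 on the log2 scale in CFPAC-1 (SE 0.16, adjusted p = 0.0003), a 2.18-fold difference, and -0.02 in SW1990 (adjusted p = 0.95).

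RPL6, a large subunit protein, showed the same picture at a higher level. It had 47.2, 43.5 and 44.9 RPKM in CFPAC-1 negative and 86.3, 85.9 and 96.7 in CFPAC-1 positive samples, while SW1990 gave 48.8, 52.0 and 44.6 in negative and 51.3, 42.3 and 47.1 in positive cells. The log2 change was 0.98 in CFPAC-1 (SE 0.09, adjusted p = 3e-05) and -0.05 in SW1990 (adjusted p = 0.75). The ranges of the other 3 groups overlapped, and the CFPAC-1 positive samples were above all of them.

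RPL7A and RPL35 followed another course, since CFPAC-1 negative cells were the low group. RPL7A, whose long pyrimidine run is printed above, had 20.4, 17.6 and 22.1 RPKM in CFPAC-1 negative against 32.4, 36.2 and 40.5 in CFPAC-1 positive samples, and between 26.1 and 36.9 in SW1990. RPL35, a protein at the exit of the peptide tunnel, had 131, 93.0 and 100.3 in CFPAC-1 negative against 179, 183 and 211 in positive samples, and between 144 and 191 in SW1990. The rise was 0.86 (SE 0.12, adjusted p = 0.00034) for RPL7A and 0.84 (SE 0.14, adjusted p = 0.00086) for RPL35 on the log2 scale.

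RPL7L1, a nucleolar paralog of RPL7, completed the 5 members that rose most. It had 25.2, 24.6 and 26.8 RPKM in CFPAC-1 negative and 48.9, 43.2 and 36.3 in positive samples, a log2 change of 0.73 (SE 0.13, adjusted p = 0.0012). RPL7 itself had 3.07, 2.95 and 2.94 against 5.25, 2.93 and 3.71 RPKM, with overlapping groups (adjusted p = 0.19). RPL17 rose by 0.66 (SE 0.10, adjusted p = 0.00036), from 17.7 ± 1.39 to 28.1 ± 1.23 RPKM (SD, n = 3). It overlaps the row that joins RPL17 to C18ORF32, at a mean of 17.8 RPKM. Of their 50-base windows, RPS26 had 31.2% to itself, RPL6 28.6%, RPL7A 26.7%, RPL35 64.0%, RPL7L1 53.7% and RPL17 38.6%. The median over the members was 67.2%. The part of shared sequence in these rises was not tested.

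The 3 members that fell in CFPAC-1 were all of the small subunit, RPS29, RPS27 and RPS12. RPS29 and RPS27 are short zinc-binding proteins. RPS29 had 25.7, 26.1 and 23.8 RPKM in negative and 12.7, 14.6 and 16.4 in positive samples, a log2 change of -0.79 (SE 0.17, adjusted p = 0.0036). RPS27 had 21.4, 21.4 and 17.3 in negative and 11.4, 11.2 and 12.3 in positive samples, a change of -0.77 (SE 0.12, adjusted p = 0.00073). In both genes the CFPAC-1 negative samples were above all other samples, and the SW1990 samples lay between 8.05 and 14.4 RPKM for RPS29 and between 8.22 and 11.4 for RPS27. RPS29 had 90.7% of its 50-base windows to itself, RPS27 4.95% and RPS12 67.2%. The part of shared sequence in these falls was not tested.

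**Figure D4:**
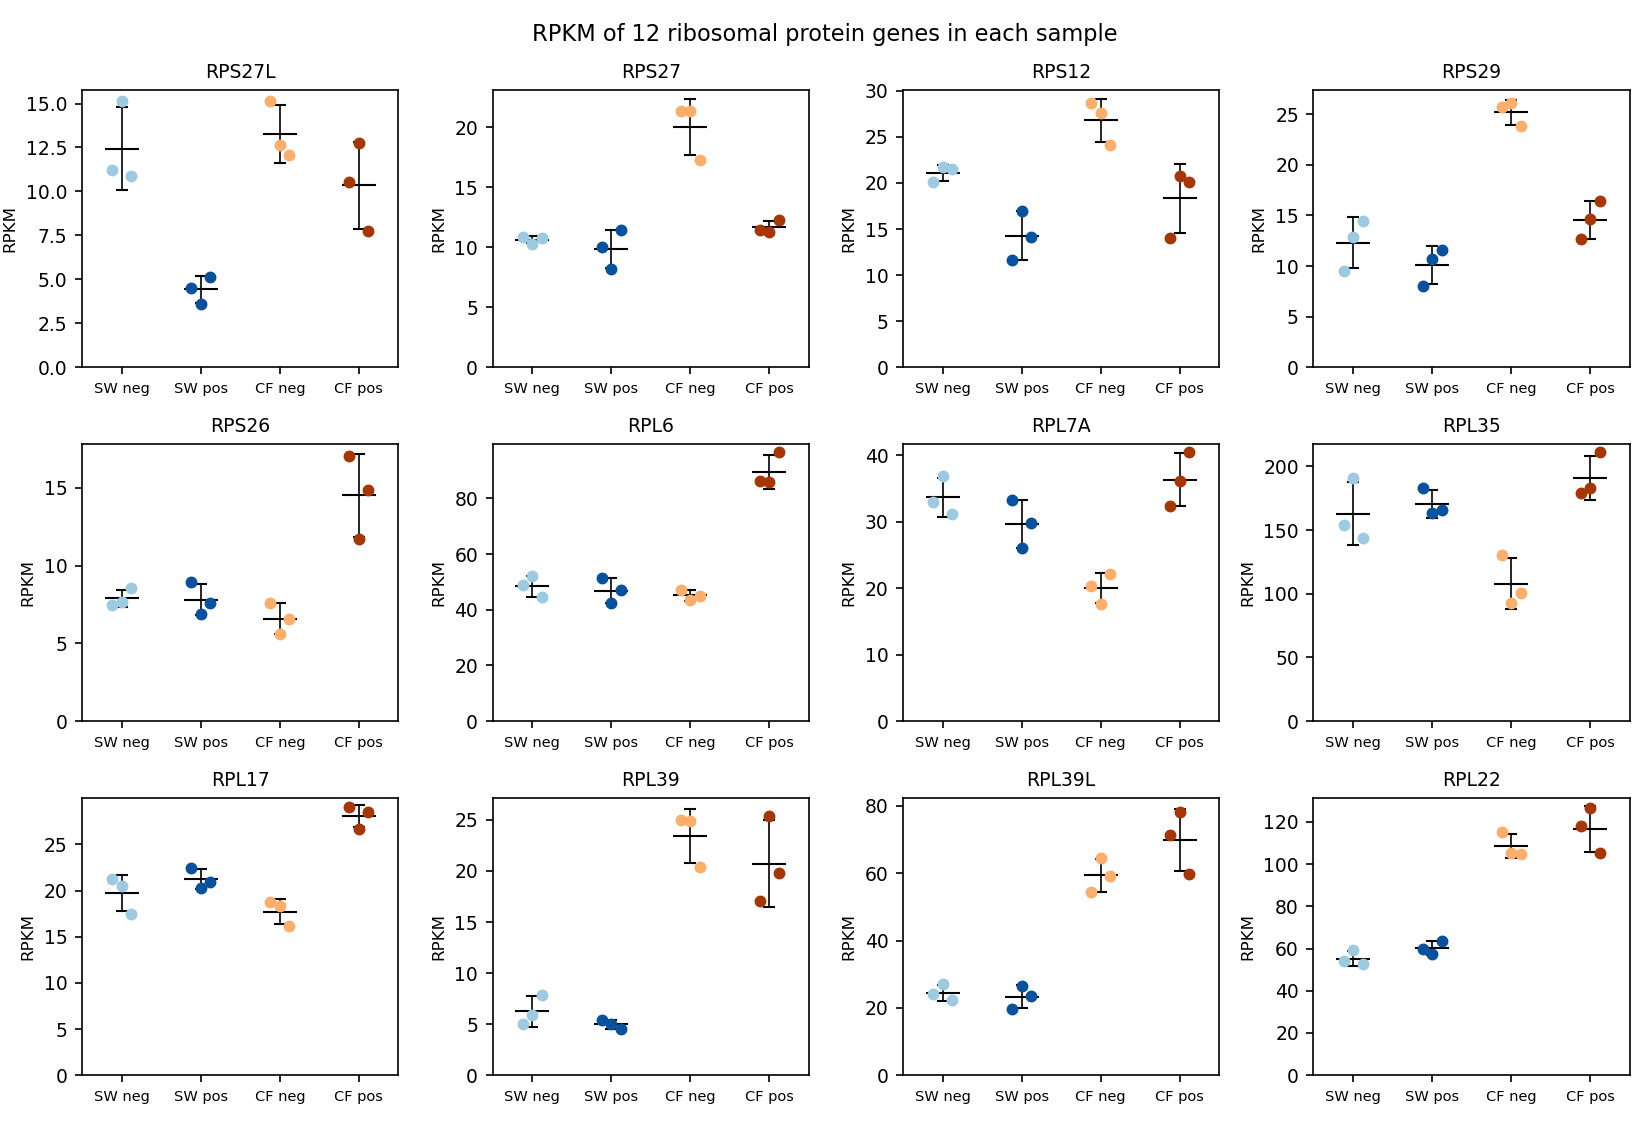
RPKM of 12 members in each sample, with the mean and SD of each group of 3 (bars) on axes that start at 0; SW and CF are SW1990 and CFPAC-1, neg and pos the sorted fractions. RPS26 and RPL6 are high in CFPAC-1 positive cells, RPS27 and RPS29 in CFPAC-1 negative cells, RPS27L is low in SW1990 positive cells, and RPL39 and RPL39L differ by line.

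The change with the antigen differed between the lines for 17 members. For 16 of them (19.8%, where 17.8% of all genes tested did so) SW1990 had the lower change, and for 1 (1.23%, against 9.16% of all genes) the higher. The median of SW1990 change minus CFPAC-1 change was -0.36 over the members and -0.15 over all genes. The 16 were RPS26, RPS27L, RPL7A, RPL6, RPL36, RPL12, RPL7L1, RPL35, RPL37, RPL26, RPS6, RPS15, RPL27, RPL17, RPLP0 and RPL23A, of which all but RPS27L and RPL37 rose in CFPAC-1. The largest was RPS26 at -1.14 (SE 0.22, adjusted p = 0.0027), and RPL6 was the most precise at -1.03 (SE 0.13, adjusted p = 0.00017). RPS27 was the 1 member with the opposite sign, 0.65 (SE 0.18, adjusted p = 0.017). With every sample centred on its median 6 members were called, and 10 with SW1990 negative replicate 2 left out. These 2 counts have no share of all genes beside them.

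Between the lines, differences were larger than with sorting. In negative cells 35 of 81 members were higher in SW1990 (43.2%, where 40.7% of all genes were) and 15 lower (18.5%, against 28.2%), and 8 passed 2-fold (9.88%, against 38% of all genes). In positive cells 10 were higher (12.3%, against 32.9%) and 29 lower (35.8%, against 29.3%), and 4 passed 2-fold (4.94%, against 29.6%). The 2 comparisons use different samples, and 24 members were called in both with the same direction, 14 lower and 10 higher in SW1990. How many of all genes were called in both is not given here, so the 24 have no background beside them. The count higher in negative cells was 23 with each sample centred on its median, and the count higher in positive cells was 16 without CFPAC-1 positive replicate 3. Counts over all genes in these fits are not given here. The SD of the log2 difference over the members was 0.63 in negative and 0.55 in positive cells, against 1.65 and 1.45 over all genes.

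RPL39, one of the smallest ribosomal proteins, which lines the exit tunnel, had the largest line difference. Its RPKM was 4.97, 5.89 and 7.90 in SW1990 negative, 5.40, 5.00 and 4.50 in SW1990 positive, 25, 24.9 and 20.4 in CFPAC-1 negative, and 17.1, 25.4 and 19.8 in CFPAC-1 positive samples. All SW1990 samples were below all CFPAC-1 samples. The difference was -1.91 on the log2 scale in negative cells (SE 0.18, adjusted p = 1.5e-06) and -2.02 in positive cells (SE 0.18, adjusted p = 1.4e-06), a 3.75-fold and a 4.07-fold difference.

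Its paralog RPL39L, known for expression in testis and in tumours, was the higher of the pair in every group and differed in the same direction. It had 24.1, 27.0 and 22.2 RPKM in SW1990 negative, 19.7, 26.6 and 23.6 in SW1990 positive, 54.5, 64.4 and 59.2 in CFPAC-1 negative, and 71.5, 78.3 and 59.9 in CFPAC-1 positive samples. The difference was -1.28 in negative (SE 0.13, adjusted p = 3.1e-06) and -1.58 in positive cells (SE 0.13, adjusted p = 7.6e-07). RPL39L held 4.08 ± 1.11 times the RPKM of RPL39 in SW1990 negative, 4.74 ± 0.94 in SW1990 positive, 2.56 ± 0.36 in CFPAC-1 negative and 3.44 ± 0.65 in CFPAC-1 positive samples (SD, n = 3). RPL39L had 97.4% of its 50-base windows to itself against 6.16% for RPL39, so the ratio sets a gene of mostly unshared sequence beside one of mostly shared sequence.

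The other paralog pairs had different balances. RPL22L1 held 0.121 ± 0.004 of the level of RPL22 in SW1990 negative and 0.074 ± 0.011 in CFPAC-1 negative samples. RPL22 differed between the lines, with 53.9, 59.2 and 52.6 RPKM in SW1990 negative and 115, 105 and 105 in CFPAC-1 negative samples (log2 difference -0.97, SE 0.09, adjusted p = 1.1e-06), whereas RPL22L1, with 6.75, 7.14 and 6.20 against 7.44, 7.65 and 9.03, did not pass the test (-0.26, with a 95% interval from -0.57 to 0.05). RPL26L1 held 0.057 ± 0.009 of RPL26 in SW1990 negative and 0.129 ± 0.010 in CFPAC-1 negative samples, and the pair differed in opposite directions between the lines, -0.49 for RPL26L1 (SE 0.13, adjusted p = 0.0042) and 0.69 for RPL26 (SE 0.14, adjusted p = 0.00075). RPS27L held 1.17 ± 0.26 times the level of RPS27 in SW1990 negative and 0.447 ± 0.009 in SW1990 positive samples, against 0.666 ± 0.066 in CFPAC-1 negative and 0.896 ± 0.25 in CFPAC-1 positive samples, so that the ratio was lower with the antigen in SW1990 and higher in CFPAC-1 as a mean. RPL7L1 held 5.66 to 11.3 times the level of RPL7 as group means, and RPL7 rested on 31 to 115 reads a sample. Of its 50-base windows, RPL7 had 3.79% to itself against 53.7% for RPL7L1. RPS27 had 4.95% against 89.9% for RPS27L. The ratios of RPL7L1 and RPS27L thus also have a partner of mostly shared sequence. RPL22 had 65.0% against 98.9% for RPL22L1, and RPL26 had 54.0% against 47.1% for RPL26L1. The part of shared sequence in these ratios was not tested.

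Other members were higher in SW1990. In negative cells RPL36 was higher in SW1990 by 1.54 (SE 0.22, adjusted p = 4.6e-05), RPL38 by 1.52 (SE 0.37, adjusted p = 0.0029) and RPS15, a small subunit protein near the decoding centre, by 1.23 (SE 0.12, adjusted p = 1.5e-06) on the log2 scale. In positive cells RPS15 was higher by 0.61 (SE 0.12, adjusted p = 0.00063) and RPL36 by 0.61 (SE 0.22, adjusted p = 0.027). The latter call was lost without CFPAC-1 positive replicate 1 or 2 or SW1990 positive replicate 1 or 3. RPL38 rested on 9 to 79 reads a sample and RPS28 on 7 to 28, and their SEs of 0.37 and 0.32 on the log2 scale were, with 0.35 for RPL36A, among the widest of the members. RPL9, with group means of 7.47 and 6.95 RPKM in SW1990 and 14.5 and 13.9 in CFPAC-1, was lower in SW1990 by 0.95 in negative and 1.00 in positive cells.

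Members that work as partners are given side by side, with no test between partners. In the stalk, which recruits the elongation factors, the base protein RPLP0 rose in CFPAC-1 (0.45, SE 0.12, adjusted p = 0.012), from 135 ± 12.6 to 185 ± 24.5 RPKM, and had -0.06 in SW1990. The CFPAC-1 call was lost with median centring, with the trend with gene length removed and without CFPAC-1 negative replicate 2. Its partner RPLP1 had 792, 734 and 689 RPKM in CFPAC-1 negative and 576, 632 and 1332 in positive samples, so that replicate 3 alone was above the negative samples and the other positive samples below them (0.09, SE 0.25, adjusted p = 0.81). RPLP2, which pairs with RPLP1 in the ribosome, lay at 4.28 to 9.06 RPKM as group means, far under RPLP1 in all 12 samples, and had 0.63 in CFPAC-1 (SE 0.24, adjusted p = 0.06), where the groups did not overlap, and 0.08 in SW1990. RPL5 and RPL11, which carry the 5S rRNA and can bind MDM2, had 0.35 (SE 0.13, adjusted p = 0.047) and 0.28 (SE 0.17, adjusted p = 0.22) in CFPAC-1, with differences between the lines of -0.36 for each, neither called, and the call of RPL5 was lost under 14 of the 23 alternatives. RPSA, also known as the laminin receptor, had 0.20 and 0.31 in SW1990 and CFPAC-1, neither called.

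Genes of the wider pathway were described by lists. Of 51 ribosome biogenesis genes, 9 rose and 1 fell in SW1990 (17.6% and 1.96%, median 0.24), and 30 rose and 1 fell in CFPAC-1 (58.8% and 1.96%, median 0.57). Of all genes, 11.3% rose and 16.9% fell in SW1990 and 22.3% rose and 14.2% fell in CFPAC-1. In CFPAC-1 the highest were EBNA1BP2, a nucleolar assembly factor (1.34, SE 0.21, adjusted p = 0.00062) and NOP56, a core protein of the box C/D particle (1.24, SE 0.20, adjusted p = 0.00076), and NOB1, the nuclease of the last 18S cut, fell by 0.48 (SE 0.11, adjusted p = 0.0043). In SW1990 RRS1 and TCOF1, the gene of Treacher Collins syndrome, rose by 0.70 (SE 0.19, adjusted p = 0.016) and 0.64 (SE 0.20, adjusted p = 0.03), and UBTF, a factor of RNA polymerase I, fell by 0.34 (SE 0.10, adjusted p = 0.028). The biogenesis genes thus had higher medians than the ribosomal proteins in both lines, which is given as a description.

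The mitochondrial ribosomal proteins, which build a separate ribosome, had 15 that rose and 0 that fell of 76 in SW1990 (19.7%, against 11.3% of all genes that rose and 16.9% that fell, median 0.20) and 48 that rose and 0 that fell in CFPAC-1 (63.2%, against 22.3% and 14.2%, median 0.38). MRPL33 (0.74, SE 0.10, adjusted p = 0.00012) led in SW1990 and MRPL23 (1.42, SE 0.25, adjusted p = 0.0013) in CFPAC-1. Of 17 translation factors and other mRNAs with TOP motifs, 0 rose and 1 fell in SW1990. These shares of 0% and 5.88% stood against 11.3% and 16.9% of all genes. In CFPAC-1, 4 rose and 1 fell (23.5% and 5.88%, against 22.3% and 14.2% of all genes). The medians were -0.01 in SW1990 and -0.07 in CFPAC-1. NAP1L1, a histone chaperone, fell in SW1990 (-0.57, SE 0.17, adjusted p = 0.029) and rose in CFPAC-1 (0.89, SE 0.17, adjusted p = 0.0022). EIF4A2, an RNA helicase of translation initiation, fell in CFPAC-1 from 486 ± 40.9 to 259 ± 39.9 RPKM (-0.92, SE 0.11, adjusted p = 0.00015).

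Of 13 regulators of TOP mRNA translation, 1 rose and 1 fell in SW1990 (7.69% each, against 11.3% and 16.9% of all genes) and 5 rose and 1 fell in CFPAC-1 (38.5% and 7.69%, against 22.3% and 14.2%). DEPTOR, an inhibitor of mTOR, fell in both lines, from 10.8 ± 2.59 to 1.79 ± 0.726 RPKM in CFPAC-1 (-2.56, SE 0.30, adjusted p = 9.8e-05) and from 0.221 ± 0.064 to 0.0494 ± 0.013 in SW1990 (-1.09, SE 0.30, adjusted p = 0.016), where it was near the pseudocount. RPTOR (0.51, SE 0.11, adjusted p = 0.0033) and RHEB (0.50, SE 0.11, adjusted p = 0.0038), the scaffold and the activating GTPase of mTOR complex 1, rose in CFPAC-1. RPS6KB2, an S6 kinase, rose in SW1990 (0.58, SE 0.17, adjusted p = 0.025). Of the 18 fitted members that are mutated in Diamond-Blackfan anaemia, 0 changed in SW1990, and 6 rose and 2 fell in CFPAC-1. The CFPAC-1 shares were 33.3% and 11.1%, against 27.2% and 3.7% of all members and 22.3% and 14.2% of all genes. In SW1990, 11.3% of all genes rose and 16.9% fell.

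**Figure D5:**
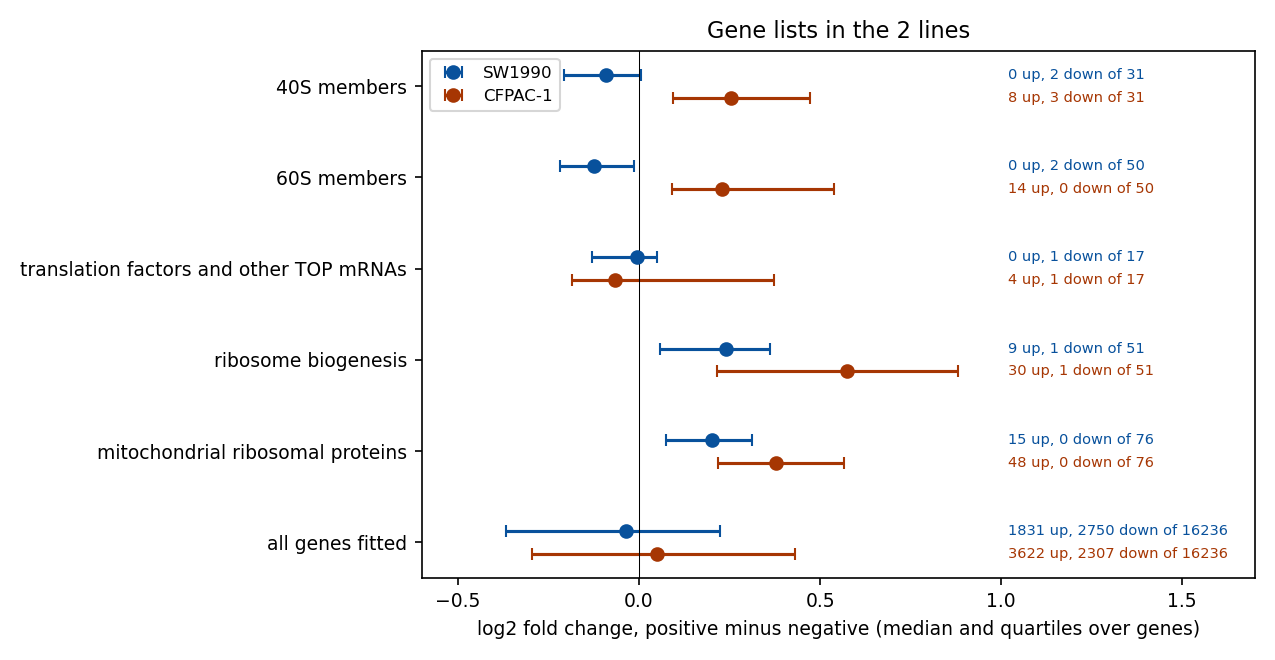
Log2 difference between positive and negative cells by gene list in SW1990 (blue) and CFPAC-1 (brown); points are medians and bars quartiles over genes, with the number called in each direction. The medians of the ribosomal proteins of both subunits lie below 0 in SW1990 and above 0 in CFPAC-1, and those of ribosome biogenesis and mitochondrial ribosomal protein genes above 0 in both.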

How the data were processed

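The deposited values are RPKM, which the authors made from reads aligned to hg19/GRCh37, quantified with QuasR and normalized for library size and gene length. The version, the annotation, the use of strand and the handling of reads with several matches are not given in the sources used here. Library preparation is a strand-specific SureSelect kit per the labels and a TruSeq kit per the paper, with poly-A RNA in both, sequenced in paired-end runs of 100 bases. Whole reads and library totals were recovered from the RPKM steps of single-exon genes for all 19654 rows above 0, to within 0.01 of a read, and served for depths and 1 alternative.

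Genes with a mean of at least 0.1 RPKM (16236) were fitted on log2(RPKM + 0.1) with limma 3.58.1 in R 4.3.3 (4 group means, eBayes with trend), 2-sided, and a gene counted as called where its p, adjusted over all genes by Benjamini-Hochberg, was under 0.05. A log2 difference on this scale understates the change of low genes. On simulated data for SW1990, 94% of genes raised and 98% of genes lowered 4-fold were called, and 0.0748% of unchanged genes. No change smaller than 4-fold was simulated, and the largest change of a member with sorting was 2.77-fold. How many changes of that size or smaller the fit would call was not tested. The paper names TCC for differential expression, which works on counts and was not used. An exact permutation test of 3 against 3 samples cannot go below p = 0.1, so single genes were tested by limma alone. Gene spans and window counts are from GENCODE 44 on GRCh37 and start sites from RefSeq on GRCh38.p14. Each member's windows were taken from the transcript nearest in length to the gene length behind its RPKM. For RPS28 that transcript was longer, at 1330 against 382 bases, and for RPL36A shorter, at 910 against 2911. Other members also differed, among them RPL7L1 at 3769 against 1275, RPL13 at 2385 against 4726 and RPL37 at 637 against 1570. Scripts ran in Python 3.11.15 with numba 0.67.0, and pandas 2.3.3, matplotlib 3.10.9 and numpy 2.4.6 served for tables and plots.

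The members and the gene lists were chosen with earlier results of these data known. Named were, for each comparison, the 5 highest and 5 lowest called members at a mean of at least 1 RPKM, the 5 highest and 5 lowest by level, paralogs with their partners, the stalk, RPSA, RPL5 and RPL11, the most changed genes of each list, and ribosomal genes the rule on symbols leaves out. Some members and genes these choices name are not reported here. Other members named were chosen after their values were seen. Alternatives were pseudocounts of 1 and 0.01, no filter, a mean RPKM of at least 1, median centring, quantile normalization, removal of the trend with gene length, voom on recovered reads, a replicate block, each line alone, a threshold of 0.01 on the adjusted p, eBayes with no trend, and each sample left out.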

Additional observations from a re-analysis of the deposited data

Results flagged for a closer look

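For 17 members the change with the antigen differed between the lines by an interaction contrast of the limma fit at an adjusted p under 0.05. Of the 81 members, 19.8% had a lower change in SW1990, against 17.8% of all genes, and 1.23% a higher one, against 9.16%. The values are the SW1990 change minus the CFPAC-1 change on the log2 scale. For the 17 members they were -1.14 for RPS26, -1.09 for RPS27L, -1.04 for RPL7A, -1.03 for RPL6, -0.93 for RPL36, -0.82 for RPL12, -0.78 for RPL7L1, -0.76 for RPL35, -0.66 for RPL37, -0.64 for RPL26, -0.64 for RPS6, -0.62 for RPS15, -0.59 for RPL27, -0.56 for RPL17, -0.51 for RPLP0, -0.42 for RPL23A and 0.65 for RPS27. RPS26, RPL7A, RPL6 and RPL7L1 were called under every alternative run for this contrast, and RPS27L under all of these but the threshold of 0.01 on the adjusted p. With that threshold left aside, RPL36 lost its call under 14 alternatives, RPL23A under 13, and RPL12 and RPLP0 under 12. RPL27 and RPL37 lost theirs under 11, RPL26 under 9 and RPS6 under 4. RPL17, RPL35, RPS15 and RPS27 each lost theirs under 1.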

How the results depend on the processing

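Of 74 calls of named members under 23 alternatives to the fit (a stricter threshold not among them), 1443 of 1607 values kept direction and call, 164 lost the call and 0 changed direction, and 49 calls held under each of these that applied. How many of all genes were called under each setting is not given here. The member counts that follow thus have no background beside them. At an adjusted p under 0.01, called members numbered 1 in SW1990, 11 in CFPAC-1 (9 higher) and 5 for the difference between lines, and 6 were higher in SW1990 than in CFPAC-1 positive cells. Median centring of the samples, which moved the median of all genes from -0.15 to 0.00081 in the difference between lines and from 0.19 to 0.006 between negative cells, left 14 called in CFPAC-1 (11 higher), 6 in the difference, and 23 higher and 21 lower between negative cells. SW1990 then had 1 higher and 2 lower. Quantile normalization gave 16 in CFPAC-1 (13 higher) and 1 higher and 5 lower in SW1990. With the trend with gene length removed there were 11 in CFPAC-1 (8 higher), 9 in the difference, 28 higher and 20 lower between negative cells, and 1 higher and 4 lower in SW1990, and eBayes without a trend gave 11 in the difference. As shares of recovered reads the members took 0.836%, 0.782%, 0.723% and 0.838% in SW1990 negative, SW1990 positive, CFPAC-1 negative and CFPAC-1 positive samples.

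Leaving out each sample gave 1 to 5 called in SW1990, with 1 without SW1990 negative replicate 2. It gave 11 to 27 in CFPAC-1 and 9 to 24 higher, with 11 without CFPAC-1 negative replicate 2 and 15 without replicate 3. The difference had 9 to 19, with 9 without CFPAC-1 negative replicate 3 or SW1990 positive replicate 3 and 10 without CFPAC-1 negative replicate 2, SW1990 negative replicate 2 or SW1990 positive replicate 2. Between positive cells 7 to 16 were higher in SW1990. The causes were not tested, and the share of all genes called without each sample is not given here. Same-numbered samples had correlations of their deviations of 0.18, 0.02 and 0.12 in SW1990 and -0.02, 0.00 and -0.06 in CFPAC-1. With 3 samples in a group, these values cannot decide whether the numbers pair the samples. A replicate block gave 1 higher and 4 lower in SW1990, 20 and 3 in CFPAC-1, and 2 and 14 in the difference. Low counts limit RPS28 and RPL38 most.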
